A study of Mus musculus with 2 samples.

Results

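The stretch described here is the flank of the Jun viewpoint on its lower side, downstream of Jun, as seen by 4C-seq, a sequencing assay of contacts between a chosen site, the viewpoint, and the rest of the genome. It was chosen by position alone: every fragment end with 1 copy in the genome whose fragment is centred between positions 94561073 and 94716073 of chromosome 4 in mm9, which is 5 to 160 kb below the viewpoint at 94721073. This gave 515 ends on 295 DpnII fragments, of 496746 unique ends of the Jun library and 921359 of the series. The equal range on the higher side, upstream of Jun, held 613 ends. The material was bone marrow-derived macrophages (BMDMs), grown from C57BL/6 marrow with L929 conditioned medium, untreated and on day 7 of differentiation. The series has 2 libraries from such cells, 1 with a viewpoint at Jun and 1 with a viewpoint at Ccl2, and no treated or mutant cells; no RNA was measured in them, so the cell type was not checked against its markers. All results are therefore descriptions of a single Jun library, with no replicate and no test between samples. Intervals are 95% and cover counting error only, and PCR copies of a ligation product count as separate reads because the protocol names no molecular identifiers. Intervals for shares treat ends as independent, and whether the ends of a fragment were linked at a given distance was not tested.

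Jun is an early response gene whose protein pairs with Fos proteins to form the transcription factor AP-1. In 4C-seq, cross-linked chromatin is cut and ligated, and the reads at a fragment end come from its ligation products with the viewpoint, each amplified by PCR. Contact usually falls with distance on either side and is often stronger within the same folded domain as the promoter. In the gene order of GRCm38.p6, the genes that follow Jun on its lower side are Gm12694, a long non-coding RNA, Mysm1, which encodes a histone H2A deubiquitinase needed for blood cell development, the pseudogene Gm12693, Eqtn, which encodes a sperm acrosome protein, and then Tek, an angiopoietin receptor gene. On the other side lie the long non-coding RNAs Junos, Gm12708 and Gm32240.

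The promoter of Mysm1 could be placed on the deposited fragment map by its own restriction sites, and its sequence is shown because the sites fix the position of the gene in the profile. The RefSeq promoter entry (GRCm38.p6, 300 bases, 62% G and C) holds 2 sites of DpnII (GATC), 184 bases apart, and 1 site of the second cutter (GTAC), 10 bases from the nearer of them. The stretch between the outermost sites is chr4:94979085-94979282 in GRCm38.p6, minus strand, written 5′ to 3′ in the direction of transcription with the restriction sites in capitals.
Mysm1 promoter: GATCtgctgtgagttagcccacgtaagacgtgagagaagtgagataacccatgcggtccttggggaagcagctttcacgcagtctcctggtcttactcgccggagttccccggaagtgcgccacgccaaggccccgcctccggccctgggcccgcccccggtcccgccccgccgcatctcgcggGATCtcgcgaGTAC

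Of 383821 fragments on chromosome 4, 551 have this length, and 1 of them also has the distance to the second cutter and the minimum lengths of its neighbours that the promoter sets. That fragment is centred at position 94645873 in mm9, 75.2 kb below the viewpoint. The same match was run on all promoter entries of the chromosome. Of the 105 entries that fixed at least 3 lengths exactly, 104 had a match (99.0%), 70 had a single match, and these 70 stood in the order of the reference genes without exception. Across the 32851 promoter entries of all chromosomes, 48.0% hold a DpnII site, 35.8% a GTAC site, and 5.09% at least 2 DpnII sites and a GTAC site. Both motifs read the same on either strand and do not overlap in the Mysm1 promoter. The Jun entry holds neither, and the Gm12694 entry fitted 259 places, so these genes were not placed. Eqtn had no entry and is known here only as lying beyond Mysm1. Mysm1 is transcribed towards lower coordinates, away from Jun, so that the stretch from 5 to 75.2 kb lies between the viewpoint and its promoter, and its gene body begins beyond it.

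The flank had reads, but far fewer than equal distances upstream of Jun. The flank held 61338 reads, 5.58% of the 1098887 reads that the Jun library has outside 5 kb of the viewpoint, and the higher range held 318474 (29.0%). Of the 515 ends, 339 had a read (65.8%, exact interval 61.6 to 69.9%), against 597 of 613 on the higher side (97.4%, 95.8 to 98.5%). An end of the flank had 119 reads on average (exact Poisson interval 118 to 120) and a median of 27 (quartiles 0 and 136), and an end of the higher range 520 on average (518 to 521) and a median of 270 (quartiles 80 and 768). The higher side thus had 4.36 times the reads per end, and 2.95 times when only ends with a read were averaged (533 against 181). The sides thus differed both in the share of ends with a read and in the reads on those ends. High values were also rarer, with 6 ends of 1000 reads or more in the flank and 108 in the higher range, and 154 against 430 ends of 100 or more. The highest end of the flank had 1526 reads and that of the higher range 4480.

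**Figure D1:**
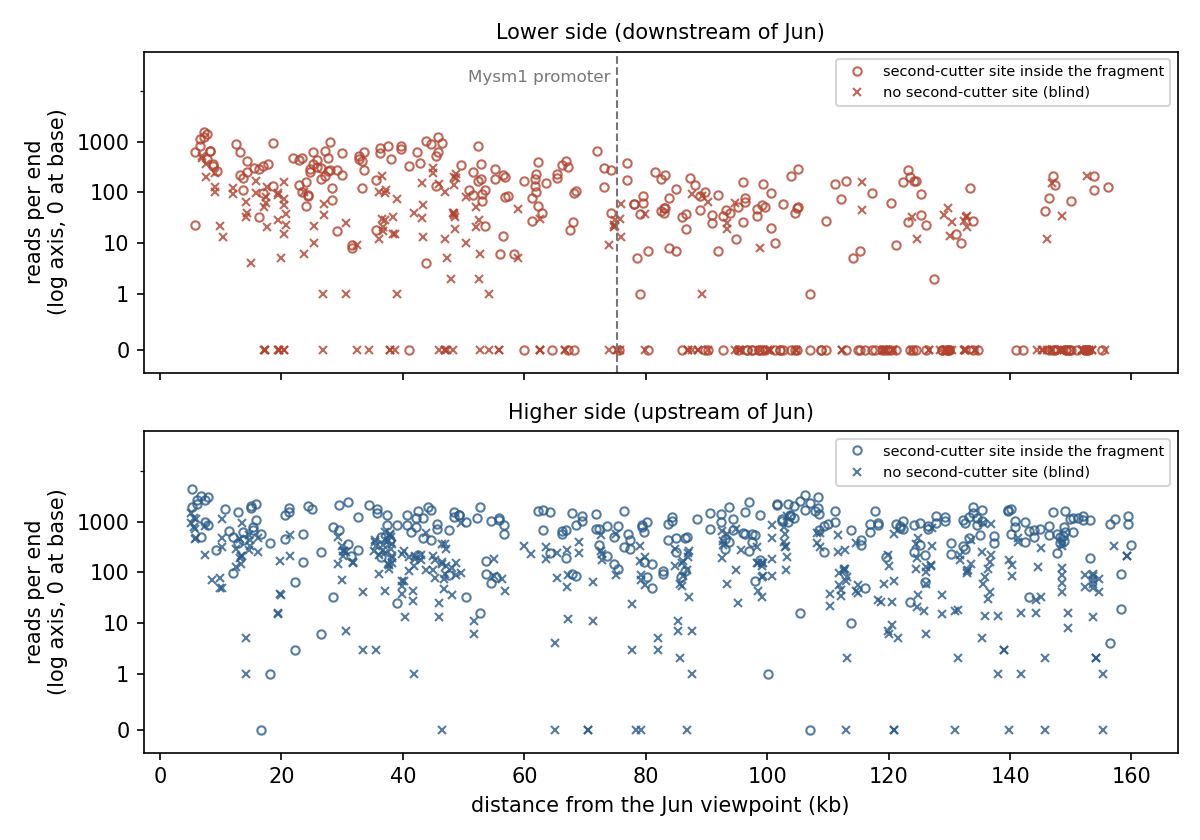
Reads on each unique fragment end (log axis, with 0 at its base) against distance from the Jun viewpoint in kb, for the 515 ends of the lower side (top) and the 613 ends of the higher side (bottom). Circles are ends of fragments with a second-cutter site and crosses ends of blind fragments without such a site. On the lower side the cloud sinks and ends at 0 accumulate with distance, and on the higher side 95.4 to 99.2% of the ends in each distance class have a read.

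The flank's signal fell with distance from Jun. At 5 to 25 kb, 90.1% of the flank's ends had a read (73 of 81, 81.5 to 95.6%), at 25 to 50 kb 88.1% (89 of 101) and at 50 to 75 kb 81.3% (61 of 75). Beyond the Mysm1 promoter the share was 65.6% at 75 to 100 kb (59 of 90, 54.8 to 75.3%), 38.9% at 100 to 130 kb (35 of 90, 28.8 to 49.7%) and 28.2% at 130 to 160 kb (22 of 78, 18.6 to 39.5%). On the higher side no class fell below 95.4%. Neighbouring classes of the flank overlapped in their intervals up to 100 kb, and the interval from 100 to 130 kb lay below that from 75 to 100 kb. These intervals treat ends as independent. Among flank fragments with both ends unique, the 5′ end had a read in 77.6% of those whose 3′ end did. Where the 3′ end had none, the share was 40.3%. These shares pool all distances, and the ends of a fragment share their distance. They therefore do not show whether ends were linked within a class. Where ends were linked, the intervals are too narrow. Reads per end fell from 259 in the nearest class to 22.1 in the farthest, while the higher side had 804 and 443. The ratio of the higher to the lower side was 3.10, 2.02 and 4.23 in the 3 classes up to 75 kb and 8.96, 18.3 and 20.1 in the 3 beyond it. Among these 6 classes, the sides were closest at 25 to 50 kb and farthest apart at 130 to 160 kb. Within the nearest class, the ratio was 2.38 at 5 to 10 kb and 2.10 at 10 to 15 kb.

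**Figure D2:**
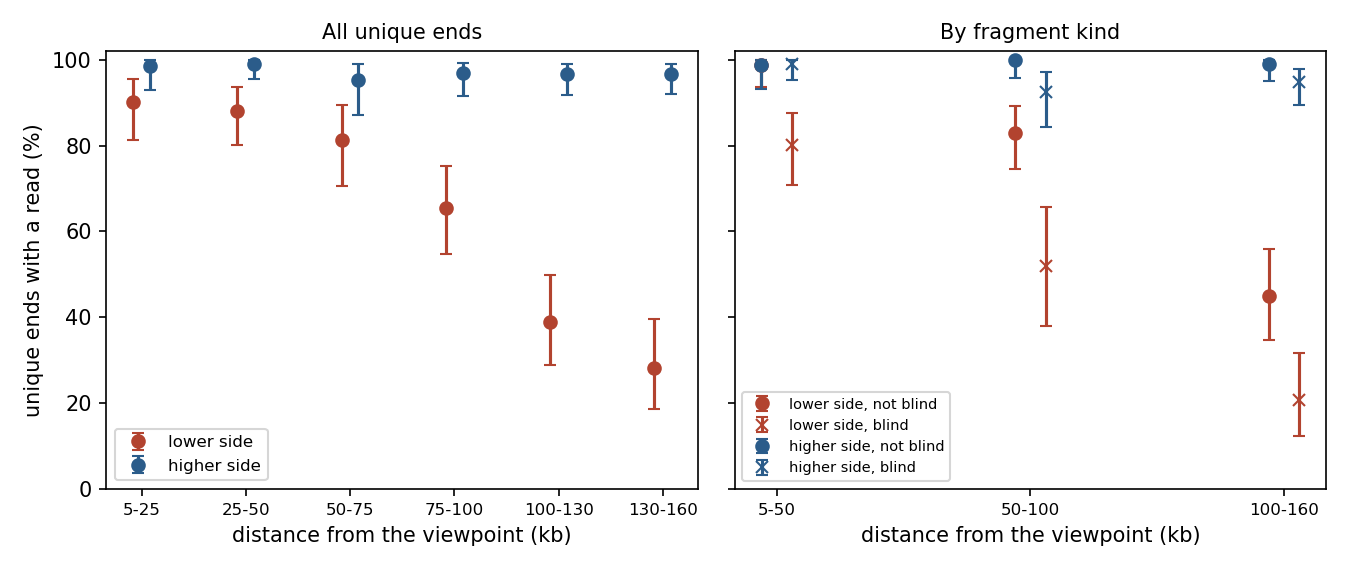
Percentage of unique ends with a read against distance from the viewpoint in kb, with exact binomial 95% intervals as bars. Left, all ends in 6 distance classes, where the lower side falls from 90.1% to 28.2%. Right, the same for ends of fragments with a second-cutter site (circles) and of blind fragments (crosses) in 3 classes, where both kinds fall on the lower side.

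The fall was not even. Reads per end were 417 from 5 to 15 kb (35 ends) and 138 from 15 to 25 kb (46 ends), rose to 230 from 25 to 50 kb (101 ends) and dropped to 113 from 50 to 75 kb (75 ends). The cut at 15 kb is not a limit of the distance classes used above. Over the whole class from 5 to 25 kb, reads per end were 259, more than from 25 to 50 kb. In reads per end, the stretch from 25 to 50 kb stood 1.66 times above the one from 15 to 25 kb. The medians differed less, with 103 reads against 86.5, and the lower quartiles were 15 and 21.5. The ratio of reads per end was 1.63 without the 10 ends with the most reads, 1.62 among fragments with a second-cutter site and 1.14 among those without. On the higher side it was 0.672 over all ends and 1.03 among fragments with a second-cutter site. Beyond 20 kb, the 5 windows of 5 kb with the most reads per end were the 5 that fill this stretch. The window from 40 to 45 kb led with 298 reads per end (3578 reads, 11 of 12 ends with a read). The windows starting at 25, 30, 35 and 45 kb followed with 259, 218, 206 and 205 reads per end. This raised stretch lies between Jun and the Mysm1 promoter.

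Windows of 5 kb at equal distance on the 2 sides were then compared. In 22 of 30 pairs (73.3%) the higher side had at least 3 times the reads per end of the lower, against a background of 54.6% (212 of the 388 pairs from 5 to 2000 kb, which include these 30). The 388 also include pairs without a read on either side, which could not pass, and only 311 had a ratio. This lowers the background share, while all 30 pairs of the flank had a ratio. The 73.3% is therefore not read as an excess over the background. In 0 of the 30 pairs the lower side had 3 times the higher, and 48 of the 388 pairs did. The higher side had more reads per end in all 30 pairs, and the median ratio was 5.18. Over the 311 of the 388 pairs for which a ratio could be formed, with an empty lower window set to 3 reads, the median was 17.6. Up to 75 kb 6 of 14 pairs passed, a share below the background, and from 75 kb on 16 of 16 did. These 16 include the pair from 140 to 145 kb, whose lower window had only 3 unique ends and 0 reads, set to 3 reads for the ratio. The ratios from 75 to 90 kb (4.18 to 6.41) still lay within those from 50 to 75 kb (2.82 to 8.60). At 90 to 95 kb the ratio was 24.5. Where the lower window had reads, the ratio ran from 1.83 at 40 to 45 kb to 38.1 at 100 to 105 kb. The latter pair combined a weak lower window, with 24.3 reads per end, with 1 of the strongest higher windows, with 924. When the share of ends with a read was compared in place of reads, 5 of 30 pairs reached 3 times. A share cannot pass 100%, so pairs whose lower window had over 33.3% of its ends with a read could not reach it. This count thus does not measure how far the sides differed in the other pairs.

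**Figure D3:**
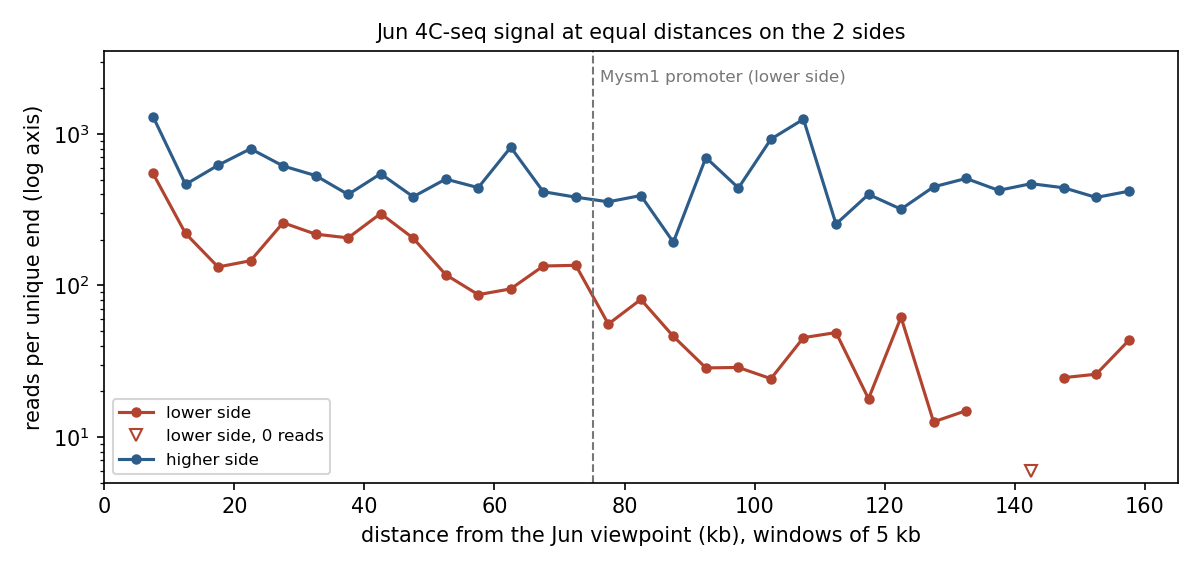
Reads per unique end (log axis) in windows of 5 kb against distance from the Jun viewpoint in kb, for the lower (red) and higher (blue) side, with the place of the Mysm1 promoter as a dashed line and the window with 0 reads as an open triangle. By distance class, the sides come closest at 25 to 50 kb and part by 8.96 to 20.1 times beyond 75 kb. By window, the ratio is 2.38 and 2.10 at the starts of 5 and 10 kb and 1.83 to 2.44 from 25 to 50 kb. It is 6.41, 4.85 and 4.18 at the starts of 75, 80 and 85 kb and 24.5 at 90 kb.

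The Mysm1 promoter itself had no read on either end of its fragment. A count of 0 leaves room for a few reads on each end by counting error alone. PCR copies add a spread that this error does not cover. The 3′ and 5′ ends of the 184 bp fragment at 94645873 are both unique. The next fragment on the side of the gene body, centred at 94645553, also had 0 reads on its unique end. Directly towards Jun, the fragment at 94646081 had 22 and 28 reads and the one at 94646273 had 21 and 23. The fragment at 94646753 followed with 40 and 274 reads. On the gene body side the fragment at 94645281 had 30 reads on its 3′ end and 0 on its 5′ end, and the one at 94645217 had 13 and 58. The long fragment at 94644225 (1916 bp) had 380 and 175, the most on this side within 5 kb. The empty ends thus form a short gap between fragments with reads. Within 5 kb on either side, 23 of 27 unique ends had a read (85.2%, 66.3 to 95.8%), with 92.4 reads per end.

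**Figure D4:**
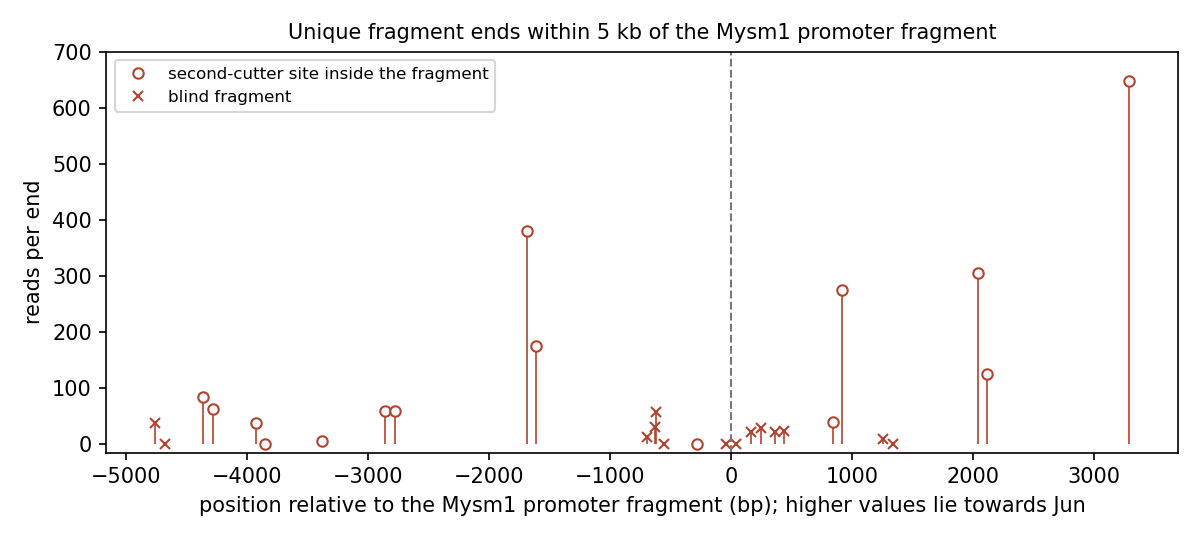
Reads on unique fragment ends within 5 kb of the Mysm1 promoter fragment (dashed line), against the position relative to it in bp, with Jun to the right; the ends of a fragment are drawn side by side for display. Circles are ends of fragments with a second-cutter site and crosses ends of blind fragments. Both ends of the promoter fragment are at 0, and the highest end within 5 kb, with 647 reads, lies on the side of Jun.

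The promoter fragment is blind, which means that it has no second-cutter site inside. Blind fragments gave few reads across the flank, and this moves with the empty promoter fragment. Of the 20 ends in the flank from 50 to 100 kb on blind fragments of 100 to 300 bp, the promoter's included, 13 had a read (65.0%, 40.8 to 84.6%), with a median of 20 reads. Its 2 empty ends were thus among 7 such ends without a read, and the part of fragment kind in this result was not tested. In the higher range, 1 of the promoter entries of Junos and 1 of those of Gm32240 had a single match; both were named after their values were seen. The Junos promoter, on a blind fragment of 105 bp and 37.8 kb above the viewpoint, had 564 and 535 reads. The Gm32240 promoter, 154 kb above it, spans 3 short blind fragments whose ends had 13 to 91 reads.

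The ends on either side of the Mysm1 promoter differed as groups. Because the share of ends with a read fell from class to class along the flank, a split at any class limit would give such a difference. It therefore does not single out the promoter. Between 5 kb and the promoter, 223 of 257 ends had a read (86.8%, 82.0 to 90.7%) with 205 reads per end, and beyond it 116 of 256 (45.3%, 39.1 to 51.6%) with 33.9. In the higher range, split at the same distance, the shares were 98.1% and 96.8%, with 566 and 484 reads per end. The change across the promoter was gradual at first: in the last 20 kb before it 77.8% of 54 ends had a read (64.4 to 88.0%), and in the first 20 kb beyond it 75.4% of 65 ends (63.1 to 85.2%). Reads per end went from 111 to 52.2. Farther out, in the window from 95 to 100 kb, 11 of 25 ends had a read (44.0%).

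The ends with the most reads lay near Jun and in the raised stretch. The highest 10 ends held 11290 reads, 18.4% of the flank, and all were on fragments with a second-cutter site. The fragment at 94713905, 7.17 kb from the viewpoint, had 1526 reads on its 3′ end and 1215 on its 5′ end. The 3′ ends of the fragments at 94713329 and 94714513, at 7.74 and 6.56 kb, had 1425 and 1104 reads. These 4 ends belong to the zone nearest to the viewpoint. Of the others, 3 lay from 43.8 to 46.5 kb: 1218 reads at 94675233, 1033 at 94677233 and 949 at 94674593. A further end at 94693073, 28.0 kb out, had 987 reads. The remaining ends, at 94702433 and 94708497, had 929 and 904 reads at 18.6 and 12.6 kb. No end beyond 50 kb was among the highest 10. On the higher side, by contrast, 2 of the 5 highest ends lay past 100 kb, at 94827377 (3295 reads, 106 kb) and 94829473 (3096 reads, 108 kb). The other 3, with 4480, 3250 and 3003 reads, lay at 94726385, 94727857 and 94728993, from 5.31 to 7.92 kb.

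Long runs of ends without a read lay in the outer part of the flank. The flank had 74 such runs, of which 9 had 5 ends or more, and these 9 all lay beyond 90 kb. The longest held 13 ends, from 94568337 to 94570961 (150 to 153 kb from the viewpoint). The next held 11 ends, from 94601233 to 94603825 (117 to 120 kb). The third held 8 ends and spanned 11.1 kb, from 94575697 to 94586801 (134 to 145 kb). It covers a stretch that the method hardly sees: from 135 to 145 kb only 10 ends of 37 fragments have a value in the file, and 3 of them are unique. The other 7 ends have more than 1 copy in the genome, and 3 of these 7 carried 176 reads. Such reads cannot be assigned to a single place. In the higher range no run was longer than 2 ends. Islands of signal remained between the empty runs, such as the window from 120 to 125 kb, where 10 of 18 ends held 1111 reads.

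The ends of a fragment did not always share their state. Of 220 fragments in the flank with 2 unique ends, 111 had a read on both (50.5%), 63 on 1 end (28.6%) and 46 on neither (20.9%). In the higher range 266 of 279 had both (95.3%), 11 had 1 and 2 had none. Where only 1 end of a flank fragment had reads, that end had a median of 40 reads and at most 331. Since PCR copies count as reads, these values do not say how many ligation products lay behind them. Where both ends had reads, the higher exceeded the lower by a median of 2.43 times in the flank and 2.22 times in the higher range, and by over 10 times in 13 and 29 fragments. These ratios leave out the 63 flank fragments with reads on 1 end only, so they understate how far the ends of a fragment differed. The ends of a fragment are parts of 1 library and not repeat measurements, so the ratios give no error between replicates. As groups, 3′ and 5′ ends were alike, with 65.9% of 264 and 65.7% of 251 ends having a read.

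The level of an end differed with fragment kind on both sides. In the flank 44.1% of ends were on blind fragments, and they held 13.8% of the reads. Ends on fragments with a second-cutter site had a read in 75.7% of cases (218 of 288, 70.3 to 80.5%) with a median of 76 reads, and ends on blind fragments in 53.3% (121 of 227, 46.6 to 59.9%) with a median of 4. Reads per end differed 4.92-fold between these kinds in the flank and 4.47-fold in the higher range, where 54.3% of ends were blind. Compared within a kind, the higher side had 4.89 times the reads per end of the lower for fragments with a site and 5.39 times for blind ones. Ends on blind fragments made up a smaller share of the flank than of the range opposite it. Among fragments with a site, 98.8% of the flank's ends had a read at 5 to 50 kb (85 of 86), 82.9% at 50 to 100 kb (92 of 111) and 45.1% at 100 to 160 kb (41 of 91). Blind ends went from 80.2% over 51.9% to 20.8%. In the flank, 46.6% of ends on fragments of up to 100 bp had a read (48 of 103), against 73.6% on those of 300 to 600 bp (103 of 140). In the higher range these shares were 92.9% (104 of 112) and 100% (150 of 150). Length was not separated here from fragment kind or distance.

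The share of ends with a read in the flank was within the range seen around the other viewpoint. At the same distances from the Ccl2 viewpoint, in a library with 901507 reads outside 5 kb, 59.0% of 658 ends had a read on the lower side (55.1 to 62.8%) and 84.7% of 647 on the higher side (81.7 to 87.4%). The flank of Jun lay between these, and its interval overlapped that of the lower side of Ccl2. By reads it was below both, with 119 reads per end against 329 and 284, while the median of 27 reads stood beside 22 and 70. The Ccl2 sides held 64 and 54 ends of 1000 reads or more, the flank 6. Past its outer limit the signal of Jun went on falling: in the next 155 kb, from 160 to 315 kb on the lower side, 41 of 483 ends had a read (8.49%, 6.16 to 11.3%), with 1512 reads in all. Viewpoint and library cannot be told apart in the comparison with Ccl2.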

How the data were processed

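Reads had been mapped to mm9 (build per the submitters' processing notes), with an aligner not given in the sources used here. Per the labels' protocols, chromatin was fixed with 2% formaldehyde for 10 min and cut with DpnII and then with the enzyme written Csp61, and 8 PCRs on 200 ng of template were pooled. The deposited files give estimated counts of reads for the 3′ and 5′ end of each fragment, not scaled to depth, which were rounded to whole reads. The authors also deposited, per the file headers, a whole-number count of genomic copies per end, the fragment length and the distances to the second cutter; a fragment was called blind where these distances reach past its own length. The viewpoint is the centre of the fragment whose end has the most reads. Promoters were placed by exact lengths between restriction sites, a step added after seeing the data. Shares have exact Clopper-Pearson intervals and read sums exact Poisson intervals. A window pair was called past a fold of 3. Named items are the 10 highest ends, the 5 highest windows beyond 20 kb, the 3 longest empty runs, the 5 highest ends opposite and the genes Jun, Mysm1, Eqtn and Tek; other genes, fragments and windows were named after their values were seen. The members and lists were chosen with earlier results of these data known. The code (Python 3.11.15, numpy 2.4.6, pandas 2.3.3, scipy 1.17.1) was tested on simulated data.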

Additional observations from a re-analysis of the deposited data

Results flagged for a closer look

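Apart from those named at 135 to 145 kb, ends whose sequence occurs at more than 1 place were not used above. In the flank, 44 of 77 such ends carried 5323 reads (69.1 per end). They are listed here because they lie outside the main measurement, and they were not compared with a control. In the higher range 36 of 36 such ends carried 17780 reads. These reads cannot be assigned to a single place.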

How the results depend on the processing

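With 1 library, the intervals cover counting error only and no spread between replicates, and single ends vary several-fold. No paired analysis was possible because each viewpoint has 1 library. Of 53 values under other settings, 27 stayed within the counting interval of the reported value (counts of pairs within 1.5 times) and 26 moved. The ratio of reads per end stayed above 3 under the 10 settings tried. At 10 reads or more per end, the share of ends with a read was 59.6% in the flank and 91.4% on the higher side. Without blind fragments it was 75.7% and 99.3%, with 184 reads per end in the flank and a ratio of 4.89. With fragments of 100 to 1000 bp it was 70.0% and 99.1%, with 134 reads per end. Up to 100 kb the flank had 81.3%, 163 reads per end, a ratio of 3.19 and 11 pairs of 19, fewer by construction. From 20 kb on it had 95.4 reads per end and a ratio of 5.08. Ends of every multiplicity gave 113 and 4.60, 3′ ends 116 and 4.54, 5′ ends 123 and 4.19, and leaving out the 10 highest ends of each side 99.1 and 4.83. The count of pairs was 11 of 16 with windows of 10 kb, 10 of 30 at a fold of 10 and 5 of 30 by the share of ends with a read. The last count is limited by the ceiling of a share.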
